A study of Mus musculus with 6 samples.

Results

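The 36 genes described here encode collagens and the proteins that assemble, cross-link, decorate and remodel the fibrous matrix of scarred lung. They were chosen as a list of symbols from the 32285 genes in the count matrices. The list holds 17 collagen genes, of which 5 are fibrillar, 4 belong to basement membranes and 8 are beaded filament or other collagens. It also holds 6 elastic fiber and microfibril genes, 3 crosslinking enzymes, 3 small leucine-rich proteoglycans, 4 matrix glycoproteins and 3 genes for a protease and protease inhibitors.

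Fibrillar collagens are secreted as procollagens, trimmed outside the cell and cross-linked by lysyl oxidases into fibers that stiffen the tissue. Networks of collagen IV lie beneath endothelium and epithelium, elastic fibers give the alveolar wall its recoil, and fibronectin is laid down early as a provisional matrix after injury. In the lung, fibroblasts of the alveolar wall and of the adventitia around vessels and airways are known collagen producers, and pericytes and smooth muscle cells, together called mural cells, wrap the vessels.

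Single-cell RNA sequencing was done on the right lung of 6 male mice that carry human CTLA4 (hCTLA4), each in a 10x Genomics 3′ library of its own. All mice were 12 weeks old, and all received bleomycin, a drug that injures and scars the lung, by the oropharyngeal route in 2 doses of 1.25 U/kg given 2 weeks apart. From day 21 after the second dose, 3 mice were injected with an IgG1 isotype control antibody and the other 3 with ipilimumab, an antibody against human CTLA4, at 5 mg/kg for 4.5 weeks. Both groups therefore share the human receptor and the bleomycin injury, and no uninjured lung was analysed here.

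The libraries held 37666042 to 48612412 unique molecular identifiers (UMIs, each standing for 1 captured transcript), and 24271 cells were used, 3270 to 4353 per mouse. Cells were assigned to 11 lineages by 20 panels of 8 marker genes, none of which is a gene of the list, and a class name below means likeness to its panel. The panels placed 91.4% of cells, while 7.09% carried markers of 2 lineages and 1.53% carried too few. Pairs of libraries shared 0 to 7 cell barcodes. The library of ipilimumab replicate 1 stood apart from the rest. It had 22056 barcodes with at least 100 UMIs, where the others had 4834 to 6230, and 78.9% of its UMIs were in called cells, where the others had 92.4% to 93.1%. Its fibroblasts had a median of 1700 UMIs, where those of the other mice had 8198 to 11859.

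Fibroblasts were 380 cells, with 34, 35 and 57 from the IgG1 mice and 126, 40 and 88 from the ipilimumab mice. All 8 adventitial and all 8 alveolar fibroblast markers were detected in them, with summed levels of 6028 and 3273 CPM (UMIs per 1000000 UMIs of the class), against 58.4 CPM for the endothelial panel and 15.4 CPM for the T cell panel. Of these cells, 283 resembled adventitial fibroblasts and 72 alveolar fibroblasts. The Aspn or Hhip panel took 9, and 16 were tied between panels. Endothelium was 937 cells and alveolar macrophages were 2550, while interstitial macrophages were 85. Mural cells were rare, with 17 cells in all and 3, 1 and 0 in the IgG1 mice and 1, 7 and 5 in the ipilimumab mice. All 8 pericyte markers were detected in them at a summed 11858 CPM and no T cell marker was, and 14 of the 17 were pericyte-like. The same panels placed the cells, so these marker levels are no separate support for the class names. Mural cells could not be compared between treatments, because only ipilimumab replicates 2 and 3 had the 5 cells required.

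For most genes of the list, the transcripts in called cells lay mainly in fibroblasts, which held 1.57% of the cells and 1.48% of all UMIs. The gene of highest level over all cells, Fn1 at 404 CPM, was an exception described below. Among gated cells, fibroblasts were the largest source of 30 of the 36 genes, endothelium of 3, macrophages of 2 and mural cells of 1. Fibroblasts held over 50% of the UMIs of 26 genes and over 80% of those of 12. Cells in no gate held 7.55% to 40.2% of the UMIs of each gene, with a median of 15.5%.

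**Figure D1:**
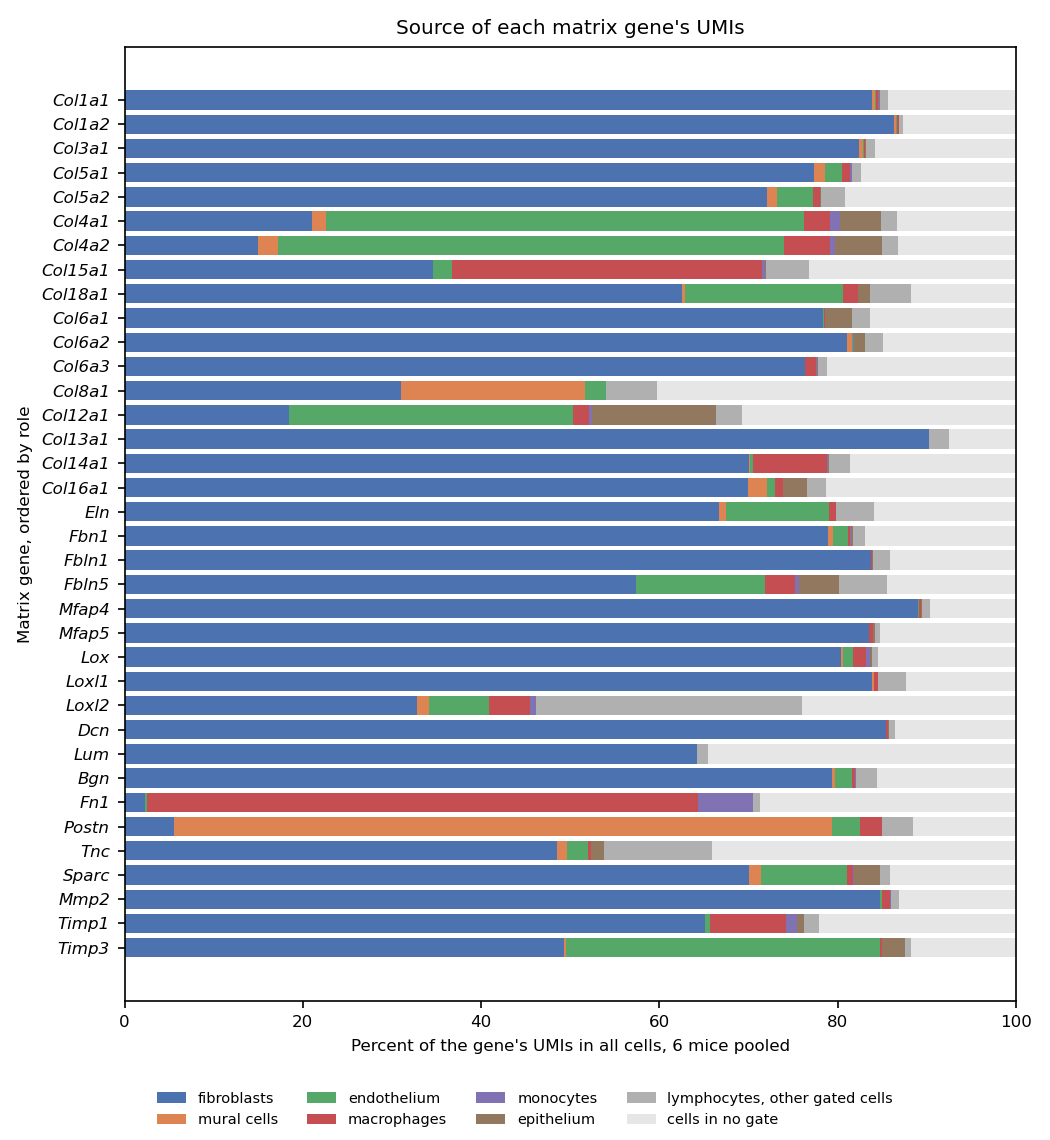
Percent of each matrix gene's UMIs, over all 6 mice, that lay in fibroblasts, mural cells, endothelium, macrophages, the remaining gated cells and cells in no gate. Fibroblasts held 90.2% of Col13a1 and 83.9% of Col1a1, endothelium 56.8% of Col4a2, macrophages 61.8% of Fn1 and mural cells 73.8% of Postn.

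The fibrillar collagens were mainly fibroblast transcripts. Col1a1 (ENSMUSG00000001506; GRCm38 chr11:94936224-94953042, + strand) and Col1a2 (chr6:4504814-4541544, + strand) encode the chains of collagen I, the main fiber of scar. Fibroblasts held 83.9% of the Col1a1 UMIs and 86.3% of the Col1a2 UMIs. Col3a1 (chr1:45311538-45349706, + strand), the chain of collagen III, had 82.4% of its UMIs there. Col5a1 and Col5a2, whose collagen V sets the diameter of collagen I fibers, had 77.3% and 72.1%. By mouse, the fibroblast share of Col1a1 was 93.0% ± 4.79 (SD, n = 3) in the IgG1 mice and 76.7% ± 10.5 (SD, n = 3) in the ipilimumab mice, and in all 6 it was between 69.9% and 97.8%. Endothelium held 4 Col1a1 UMIs, 8 of Col1a2 and 2 of Col3a1 in its 937 cells.

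Within fibroblasts the most abundant gene of the list was Dcn (decorin, a proteoglycan that coats collagen fibers) at 9801 CPM over all mice. It was followed by Col1a2 at 2664, Timp3 at 2580, Col3a1 at 2065, Sparc at 1801, Bgn at 1753 and Col1a1 at 1606 CPM. These are levels of 3′ UMIs, which were not divided by transcript length. In fibroblasts, 27 of the 36 genes exceeded 100 CPM, against 14 in mural cells, 4 in endothelium, 1 in alveolar macrophages and none in T or NK cells and B cells. The only genes of the list under 10 CPM in fibroblasts were Col8a1 at 7.84 CPM, with 24 of its 27 UMIs in 1 cell, and Postn at 4.65 CPM.

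**Figure D2:**
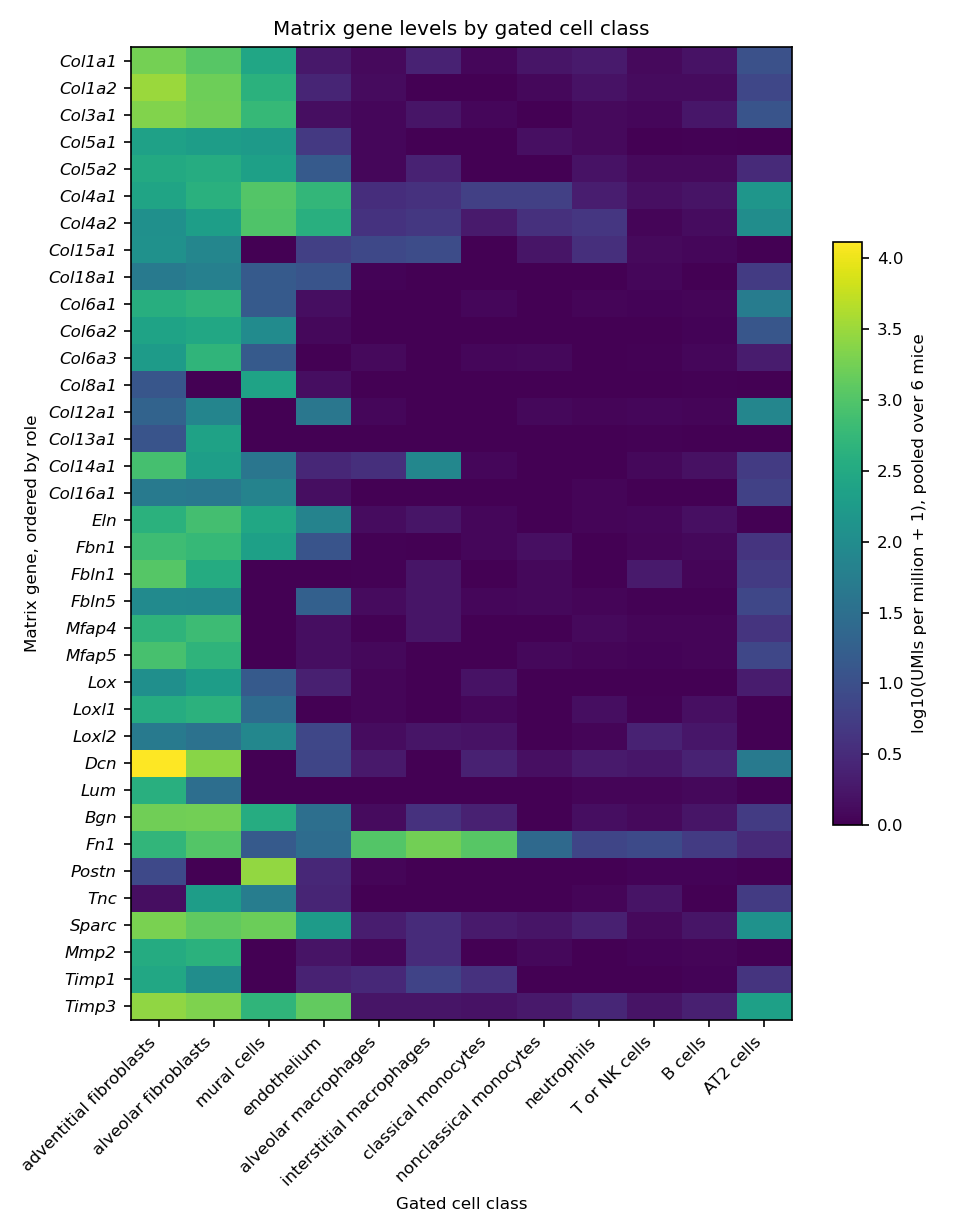
Level of each matrix gene in each cell class in CPM on a log scale, over all 6 mice, with genes ordered by role. Fibroblasts carry 27 of the 36 genes above 100 CPM, mural cells 14 and endothelium 4, and the highest value in alveolar macrophages is Fn1 at 1019 CPM.

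Background from free RNA was read from lymphocytes and empty barcodes. Dcn reached 1.52 CPM in B cells and 0.804 CPM in T or NK cells, against 86.3 to 187 CPM in the RNA of empty barcodes. Fn1 stood at 354 to 635 CPM in empty barcodes, and at 4.16 CPM in B cells, where it was the highest gene of the list. The share of free RNA, estimated from 6 epithelial transcripts, was 0.474% to 2.41% of the UMIs in fibroblasts and 0.782% to 1.91% in endothelium. In epithelium, which makes those transcripts, the estimate stood at its cap of 50%, and in cells in no gate it ran from 0.929% to that cap, so free RNA was not bounded in these cells. Counting intervals and floors given below cover counting error only.

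Elastic fiber and microfibril genes were also mostly fibroblast transcripts. Mfap4 and Mfap5 encode microfibril-associated proteins, and fibroblasts held 89.0% and 83.5% of their UMIs. Fbln1 (fibulin 1) had 83.7% there and Fbn1 (fibrillin 1, the backbone of microfibrils) 78.9%. Eln (elastin) and Fbln5 (fibulin 5, which tethers elastin to cells) were more divided, with 66.7% and 57.4% in fibroblasts and 11.6% and 14.5% in endothelium. In fibroblasts Eln stood at 530 CPM and in endothelium at 67.5 CPM.

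Of the crosslinking enzymes, Lox and Loxl1 had 80.4% and 83.9% of their UMIs in fibroblasts. Loxl2 was the exception, with 32.8% in fibroblasts, 19.3% in T or NK cells and 9.19% in B cells. The T or NK share was 88 UMIs, and the level in fibroblasts was 28.9-fold higher than in T or NK cells. In empty barcodes Loxl2 stood at 33.1 CPM in IgG1 replicate 1 and at 1.26 to 7.10 CPM in the other libraries. Its fibroblast level was 43.6 CPM, below that of Loxl1 at 383 and Lox at 129 CPM. Among the proteoglycans, Dcn had 85.4% of its UMIs in fibroblasts, Bgn (biglycan) 79.4% and Lum (lumican) 64.2%, and 34.5% of the Lum UMIs were in cells in no gate. Mmp2, a gelatinase, had 84.8% in fibroblasts, and Timp1, an inhibitor of metalloproteinases, 65.1%.

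Basement membrane collagens had a different origin. Col4a1 and Col4a2, which encode the paired chains of collagen IV, had 53.6% and 56.8% of their UMIs in endothelium and 21.0% and 15% in fibroblasts. Endothelium held 3.86% of the cells and 2.01% of all UMIs. The levels per cell class were closer than these shares. Col4a1 stood at 538 CPM in endothelium and 286 CPM in fibroblasts, and was highest in mural cells at 1024 CPM. Col4a2 stood at 399, 143 and 957 CPM in the same order. Col18a1, the precursor of endostatin, had 62.5% of its UMIs in fibroblasts and 17.7% in endothelium.

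Timp3, an inhibitor that binds to the matrix, was shared by fibroblasts and endothelium. Fibroblasts held 49.3% of its UMIs and endothelium 35.2%, and its 1357 CPM made it the most abundant gene of the list in endothelium. It lies over Syn3 on the opposite strand, which had 236 UMIs in fibroblasts against 8883 of Timp3, and the counting used strand. Col12a1, a fiber-associated collagen, was the third gene with more UMIs in endothelium (31.9%) than in fibroblasts (18.4%), and 14.0% of its UMIs were in epithelium.

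When the same mice were compared, 30 of the 33 genes of the list that could be tested were higher in fibroblasts than in endothelium and 2, Col4a1 and Col4a2, were lower (edgeR quasi-likelihood test with mouse as a block; a gene was called where its Benjamini-Hochberg adjusted p was below 0.05 and its log2 difference exceeded 0.3 in size). In that comparison 65.0% of all 7650 genes were called. The log2 difference was -0.76 for Col4a1 (SE 0.143, adjusted p = 0.000209) and -1.32 for Col4a2 (SE 0.157, adjusted p = 1.58e-06). For Timp3 it was 1.17 (SE 0.151, adjusted p = 4.21e-06). Col12a1 was not called, at -0.47 (SE 0.371, adjusted p = 0.281). For Col1a1, Col1a2 and Col3a1 the fitted differences were 10.74 (SE 0.331), 10.65 (SE 0.323) and 11.85 (SE 0.308). Endothelium had 4, 8 and 2 UMIs of them, and the sizes are therefore imprecise. Each SE was derived from the fitted difference and the F of its test, and at such counts it understates the error of the size. Endothelium had no UMI of Col6a3, Col13a1, Fbln1, Loxl1 or Lum. Against a floor of 3 UMIs over all endothelial cells, Fbln1 was at least 1324-fold higher in fibroblasts, Loxl1 at least 598-fold, Lum at least 439-fold, Col6a3 at least 420-fold and Col13a1 at least 108-fold. The median fold over the 36 genes, with every gene under 3 endothelial UMIs set at that floor, was 66.4.

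The other genes called higher in fibroblasts than in endothelium covered every role. Among collagens the log2 difference was 5.96 for Col5a1, 4.73 for Col5a2, 4.66 for Col15a1, 2.50 for Col18a1 and 8.42 for Col14a1. Among elastic fiber genes it was 6.08 for Fbn1, 3.19 for Eln and 2.64 for Fbln5, and among crosslinking enzymes 6.58 for Lox and 2.93 for Loxl2. Dcn was at 10.80, Bgn at 6.08, Fn1 at 5.31, Sparc at 3.52 and Timp1 at 7.41. Of these, Lox, Timp1 and Col14a1 rest on 6, 7 and 9 endothelial UMIs. The Fn1 value ran from 4.24 to 6.66 over the alternatives, and most of its endothelial UMIs lay in 1 cell. Col6a1 at 9.57, Col6a2 at 9.56, Col16a1 at 6.40, Mfap4 at 9.85, Mfap5 at 10.36 and Mmp2 at 8.97 rest on 1 to 3 endothelial UMIs each, so their sizes are imprecise.

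Macrophages held most of the fibronectin transcripts among the called cells, and no protein was measured. Fn1 (chr1:71585520-71653200, - strand) had 61.8% of its 93862 UMIs in macrophages, 6.25% in monocytes and 2.34% in fibroblasts, while macrophages held 10.9% of the cells and 24.0% of all UMIs. In alveolar macrophages the level was 1222, 988 and 1210 CPM in the IgG1 mice and 915, 1057 and 814 CPM in the ipilimumab mice. A UMI of Fn1 was present in 90.6% of macrophages, against 2.51% of B cells and 3.36% of T or NK cells. Per UMI, fibroblasts were not far below, at 638 CPM against 1019 CPM in alveolar macrophages. Classical monocytes stood at 1105 CPM and nonclassical monocytes at 24.4 CPM.

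Interstitial macrophages varied more, on 14, 18 and 5 cells in the IgG1 mice and 17, 10 and 21 in the ipilimumab mice. Those of ipilimumab replicate 1 had a median of 2383 UMIs, against 9807.5 to 26048.5 in the other mice. The Fn1 level of interstitial macrophages was 2834, 2495 and 1330 CPM in the IgG1 mice and 113, 2323 and 1047 CPM in the ipilimumab mice. Of the 85 cells, 34 had a UMI. These cells also had Col14a1, a fiber-associated collagen, at 78.3 CPM, with 50.4, 107 and 197 CPM in the IgG1 mice and 236, 17.5 and 40.3 CPM in the ipilimumab mice. A Col14a1 UMI was seen in 43.5% of interstitial macrophages (exact 95% interval 32.8 to 54.7) and in 0.199% of T or NK cells. The most abundant gene of the list in these macrophages was still Fn1, at 1751 CPM.

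Col15a1, a basement membrane collagen, was divided between macrophages with 34.8% of its UMIs and fibroblasts with 34.6%. The macrophage share rested on many cells with few UMIs. Its level was 6.97 CPM in macrophages and 112 CPM in fibroblasts, and 12.3% of macrophages had a UMI, at a median of 20522.5 UMIs per cell, against 0.245% of T or NK cells at a median of 7874. Apart from Fn1, Col15a1, Col14a1 and Timp1, no gene of the list had more than 6% of its UMIs in macrophages.

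Periostin marked the mural cells. Postn, a matricellular protein of remodeling tissue, had 73.8% of its UMIs in the 17 mural cells, which were 0.0700% of the cells. The UMI counts were 56, 3 and 0 in the IgG1 mice and 9, 60 and 83 in the ipilimumab mice, and 16 of the 17 cells (94.1%, exact 95% interval 71.3 to 99.9) had at least 1. In fibroblasts 5 of 380 cells (1.32%) had a UMI, and in T or NK cells 0.0764%. The level was 2843 CPM in mural cells and 4.65 CPM in fibroblasts.

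Other genes of the list in mural cells were Sparc at 1563 CPM, Col4a1 at 1024, Col4a2 at 957, Col3a1 at 566 and Col8a1 at 243 CPM. Col8a1, a short-chain collagen of vessel walls, had 18 UMIs in 6 of the 17 cells (35.3%). No UMI was found of 11 genes, among them Dcn, for which a count of 0 allows up to 40.4 CPM. Against that floor the Dcn level of fibroblasts was at least 242-fold higher.

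In ipilimumab replicates 2 and 3, the mice with enough mural cells, 20 of 32 genes of the list were called higher in fibroblasts than in mural cells and 4 were called lower, where 21.7% of all 3980 genes tested were called in either direction (edgeR). The 4 lower genes were Postn at -7.04 (SE 0.670, adjusted p = 3.66e-11), Col8a1 at -6.87 (SE 0.808, adjusted p = 8.33e-09), Col4a2 at -2.37 (SE 0.548, adjusted p = 0.00100) and Col4a1 at -1.49 (SE 0.528, adjusted p = 0.0363). Col1a1, Col1a2 and Col3a1 were higher in fibroblasts by 2.88 (SE 0.572), 3.34 (SE 0.562) and 2.09 (SE 0.533) on the log2 scale, with adjusted p of 0.000145, 1.21e-05 and 0.00291. Of the other genes called higher in fibroblasts, Bgn was at 2.81, Timp3 at 2.28, Fbn1 at 1.64, Col6a2 at 2.78, Col14a1 at 3.95 and Loxl1 at 3.73, while Fn1 at 5.51 and Col6a3 at 4.16 had 1 mural UMI each. Col6a1 was called with 1 mural UMI, outside these mice. Against a floor of 3 mural UMIs it was 10.3-fold higher in fibroblasts over all mice, which is not a lower bound because it had a mural UMI. The remaining 8, all without a mural UMI, were at least 242-fold (Dcn), 21.0-fold (Fbln1), 17.6-fold (Mfap5), 13.3-fold (Mfap4), 9.20-fold (Mmp2), 6.97-fold (Lum), 6.14-fold (Timp1) and 2.78-fold (Col15a1) higher in fibroblasts over all mice. Lox at 3.26 and Col5a2 at 1.33 had an unadjusted p under 0.05 and were not called, and so did Fbln5, at least 2.34-fold higher. Over all 36 genes the median fold of fibroblasts over mural cells, with every gene under 3 mural UMIs set at that floor, was 3.11. This comparison rests on 12 mural cells, and DESeq2 called 186 genes in it where edgeR called 862. Of the list DESeq2 called 11, among them Postn, Col8a1, Col1a2 and Dcn, but not Col1a1, Col3a1, Col4a1 or Col4a2.

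Among the fibroblasts, the genes of the list separated the adventitial from the alveolar cells, although no gene of the list was used to tell these apart. They were compared within IgG1 replicate 2 and the 3 ipilimumab mice, which had at least 5 alveolar cells each. Of 34 genes tested, 9 were called higher in adventitial cells and 5 higher in alveolar cells, where 15.6% of all 5188 genes were called (edgeR quasi-likelihood test with mouse as a block). The median log2 difference was 0.10 over the list and 0.00 over all genes.

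The adventitial cells had more proteoglycan. Dcn stood at 14196 CPM in IgG1 replicate 2 and at 9842, 14088 and 13516 CPM in the ipilimumab mice, against 1798, 1403, 768 and 2689 CPM in alveolar cells of the same mice. The ranges did not overlap, and the log2 difference was 3.09 (SE 0.312, adjusted p = 1.82e-05). Lum was higher by 3.25 (SE 0.557, adjusted p = 0.00113), with 898 UMIs in adventitial and 24 in alveolar cells over all mice. Bgn was not called, at 0.08 (SE 0.229).

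Collagen I followed the same direction with a smaller difference. The log2 difference was 1.14 (SE 0.240, adjusted p = 0.00459) for Col1a2 and 0.79 (SE 0.224, adjusted p = 0.0256) for Col1a1, while Col3a1 at 0.38 (SE 0.254, adjusted p = 0.362) was not called. Col14a1 was higher in adventitial cells by 2.30 (SE 0.268, adjusted p = 5.73e-05), Fbln1 by 1.68 (SE 0.240, adjusted p = 0.000271) and Timp1 by 1.58 (SE 0.324, adjusted p = 0.00390). Mfap5 at 0.85 and Sparc at 0.75 were also called, with adjusted p of 0.0487 and 0.0321.

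The alveolar cells had more Col13a1, a transmembrane collagen. Its level was 186 CPM in IgG1 replicate 2 and 259, 490 and 135 CPM in the ipilimumab mice, against 9.14, 24.5, 3.22 and 13.9 CPM in adventitial cells of the same mice. Again no value of one class reached the other, and the log2 difference was -4.06 (SE 0.448, adjusted p = 4.00e-05). A Col13a1 UMI was found in 48 of 72 alveolar cells (66.7%), in 16 of 283 adventitial cells (5.65%) and in 0.0459% of T or NK cells. Tnc (tenascin C, a glycoprotein of injured and developing tissue) was called too. It had 161 UMIs in 17 of 72 alveolar cells (23.6%) and 1 UMI in the 283 adventitial cells. Its fitted difference of -8.02 (SE 0.641, adjusted p = 2.29e-06) is imprecise for that reason, by more than the SE shows. Its UMIs were concentrated, with 91.5% of the 165 in fibroblasts held by 10 cells.

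Col6a3, a chain of the beaded filament collagen VI, was lower in adventitial cells at -1.30 (SE 0.303, adjusted p = 0.00868), and so were Fn1 at -1.07 (SE 0.344, adjusted p = 0.0487) and Col4a2 at -0.96 (SE 0.284, adjusted p = 0.0325). The companion chains Col6a1 at -0.26 (SE 0.249) and Col6a2 at -0.18 (SE 0.240) were not called. Lox at -0.90, Col4a1 at -0.66, Mfap4 at -0.56, Col12a1 at -1.21 and Timp3 at 0.56 had an unadjusted p under 0.05 and were not called either. Of the 14 genes called, 8 kept the call in each alternative in which they could be tested, and those were Col1a2, Col13a1, Col14a1, Fbln1, Dcn, Lum, Timp1 and Tnc. Col1a1, Col4a2, Col6a3, Mfap5, Fn1 and Sparc lost it in at least 1, and without ipilimumab replicate 1, which gave 39 of the 72 alveolar cells, 7 of the genes were called.

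**Figure D3:**
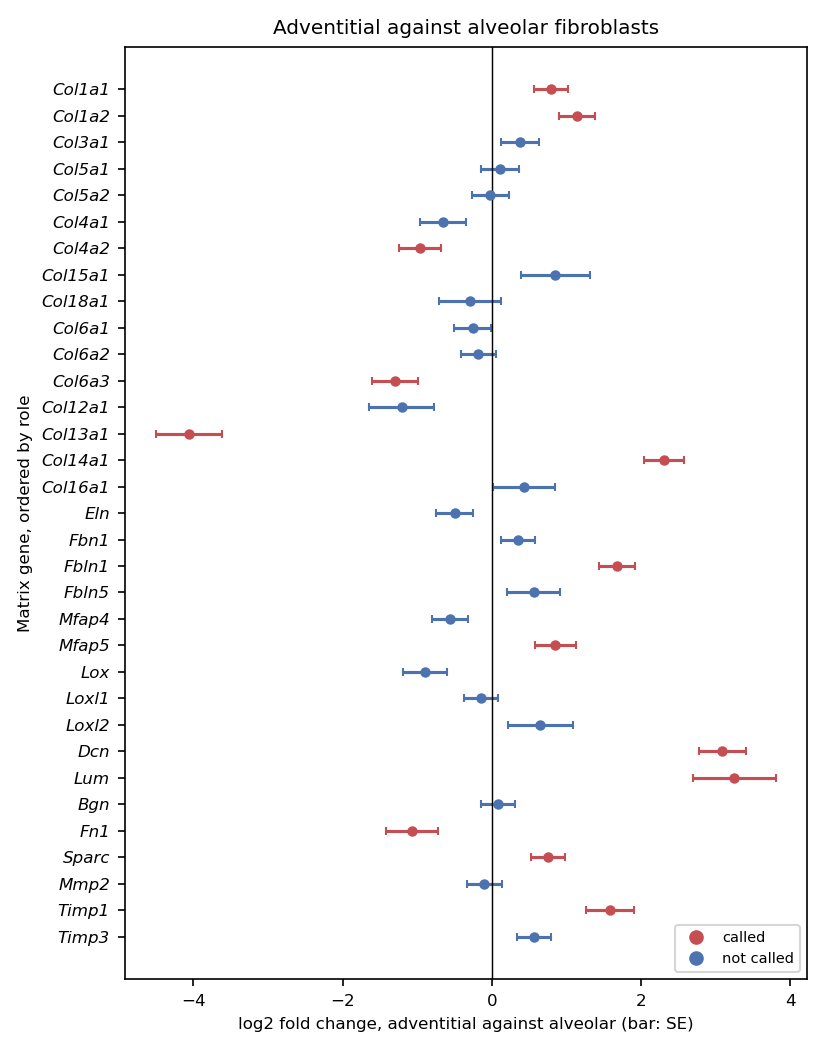
Log2 difference of each matrix gene between adventitial and alveolar fibroblasts of the same mice, with bars of 1 SE and called genes in a second color; Tnc, with 1 UMI in adventitial cells, is left out. Lum at 3.25 and Dcn at 3.09 lie at the adventitial end and Col13a1 at -4.06 at the alveolar end.

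Other genes of matrix assembly were followed in 7 lists, whose counts are to be read against the 15.6% of all genes called in this comparison. Of 18 collagen folding and processing genes tested, 5 were higher in adventitial cells and 1 lower, among them Pcolce, a procollagen processing enhancer, at 1.41, Bmp1, a procollagen protease, at 2.02 and Plod2, a lysyl hydroxylase, at -1.52. Of 11 matrix turnover genes, 5 were higher and 2 lower, with Mmp23 at 2.20, Timp2 at 1.66 and Serpine2 at -2.17. Of 15 genes of TGF-beta activation and response, 1 was higher (Tgfbi at 3.62) and 3 were lower (Thbs1 at -4.82, Itgav at -1.0 and Ltbp1 at -0.97). Of 9 other elastic fiber and proteoglycan genes, 2 were higher, Fbln2 at 1.80 and Vcan at 0.97, and 2 were lower, Emilin1 at -1.24 and Prelp at -1.05. Of 5 other collagens, none was higher and 2 were lower, Col27a1 at -2.02 and Col23a1 at -0.99. None of 7 laminin and other basement membrane genes and neither of the 2 collagen receptors tested was called. All these values are log2 differences of genes called by edgeR with Benjamini-Hochberg adjustment over all genes.

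The study asked what CTLA4 blockade does in the fibrotic lung, and here the question was whether the matrix genes differed in level between ipilimumab and IgG1 mice within a cell class. The 5 treatment comparisons below use the same 3 control mice, so they are not independent of each other. In the design with 3 mice against 3, an exact two-sided permutation test of a single value cannot give a p below 0.10. The replicates are separate mice, and p-values measure the spread between them.

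In fibroblasts none of the 34 genes tested was called, and over all 6635 genes 1 was called (0.0151%), Chsy3, a chondroitin sulfate synthase that is not in the list. DESeq2 called 29 genes, none of them in the list. The median log2 fold change was -0.12 over the list and -0.01 over all genes, with 11 genes of the list above 0 and 23 below. At an unadjusted p under 0.05 there were 5, which is 2 higher and 3 lower in ipilimumab mice, where 9.74% of all genes passed that limit. The levels of 4 genes did not overlap between the groups (Col12a1, Col14a1, Mfap5 and Timp3), where 15.5% of all genes did not. Col8a1 and Postn were too low to be tested.

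The collagen I and III genes were close between the groups. Col1a1 stood at 1417, 1659 and 1749 CPM in IgG1 and 1141, 1424 and 2135 CPM in ipilimumab mice, and its log2 fold change was -0.02 (SE 0.228, edgeR adjusted p = 0.988). Col1a2 stood at 2688, 2862 and 2974 CPM and 1897, 2724 and 3144 CPM, with -0.12 (SE 0.200, adjusted p = 0.893). Col3a1 stood at 1879, 2390 and 2007 CPM and 1538, 1809 and 2690 CPM, with -0.04 (SE 0.219, adjusted p = 0.967). In each, the lowest and the highest mouse were both ipilimumab mice, and the fold changes depended on which mouse was left out. Without ipilimumab replicate 1 they were 0.18, 0.08 and 0.14, and without ipilimumab replicate 3 they were -0.33, -0.30 and -0.33. The standard errors of about 0.2 set the limit on what could be seen here.

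**Figure D4:**
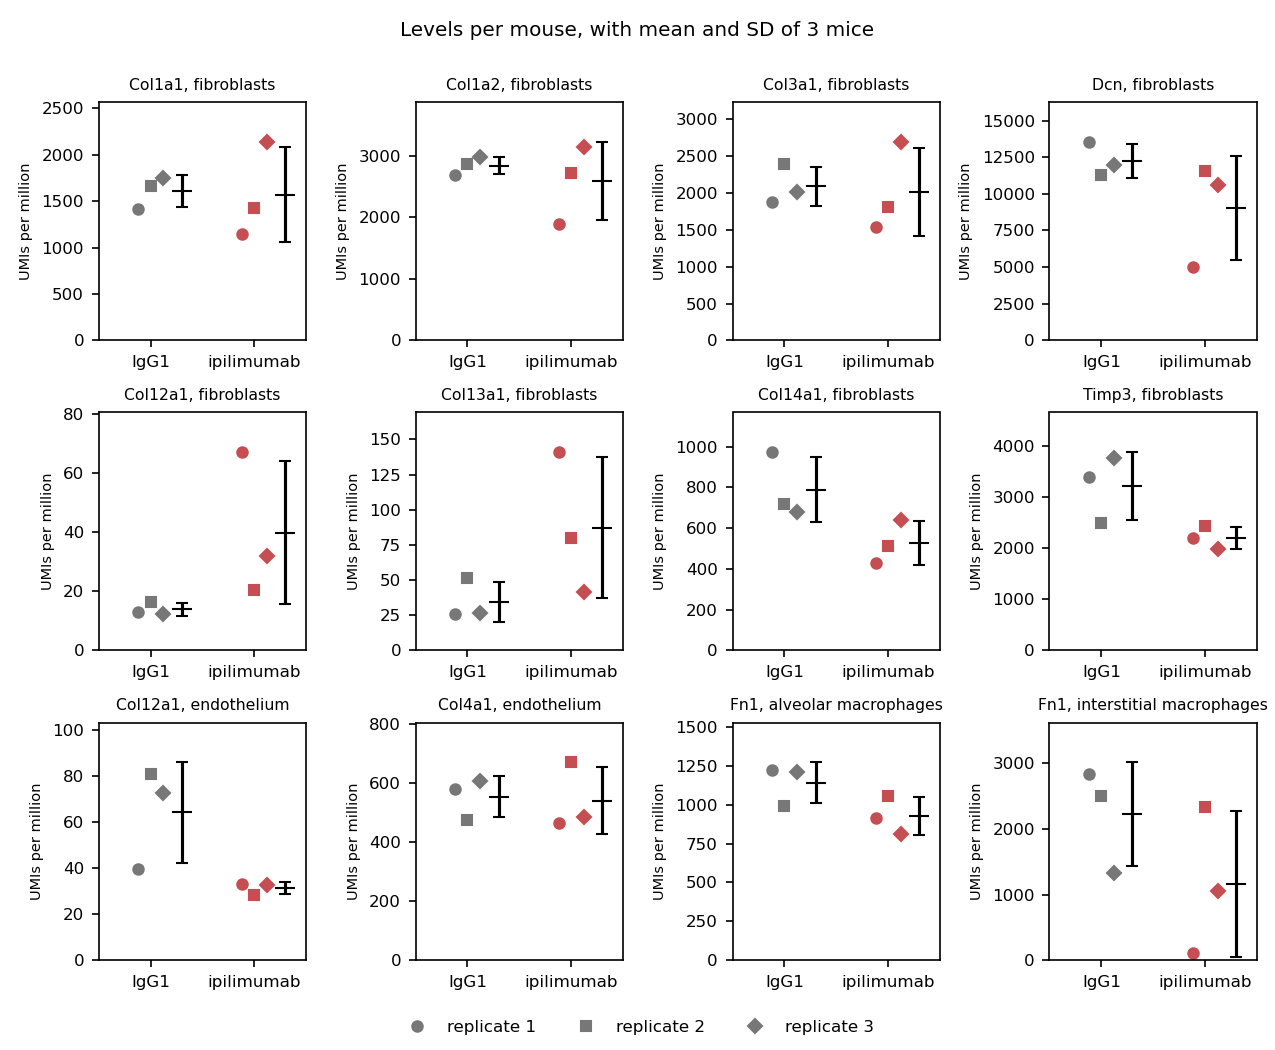
Level in CPM of selected matrix genes in each mouse, by treatment and cell class, with the mean and SD of 3 mice beside the points. Col1a1 in fibroblasts overlaps between IgG1 (1417 to 1749 CPM) and ipilimumab (1141 to 2135 CPM). Col12a1 is higher in ipilimumab fibroblasts and lower in ipilimumab endothelium in all 3 mice, and neither difference was called. With classes from clusters, whose fibroblasts included cells of other lineages, its log2 fold change there was -0.25.

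The 2 genes at the higher end were Col12a1 and Col13a1. Col12a1 stood at 12.9, 16.3 and 12.5 CPM in IgG1 and 67.2, 20.6 and 31.9 CPM in ipilimumab fibroblasts, a log2 fold change of 1.60 (SE 0.458, adjusted p = 0.260 by edgeR). Col13a1 stood at 25.9, 51.2 and 26.7 CPM and 141, 79.7 and 41.4 CPM, a fold change of 1.34 (SE 0.435, adjusted p = 0.319). The highest value of each gene was in ipilimumab replicate 1, and the groups overlapped for Col13a1. Without that mouse Col13a1 was at 0.75 and Col12a1 was too low to be fitted. With classes taken from clusters instead of gates, Col12a1 was at -0.25. That class included a cluster of 242 cells, 143 of them from ipilimumab replicate 1, in which 70.1% of the gated cells were fibroblasts.

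Both genes were also higher in alveolar than in adventitial fibroblasts, by the values above for Col13a1 and by 1.21 on the log2 scale for Col12a1, which was not called (adjusted p = 0.0773). Alveolar cells were 8.82%, 14.3% and 7.02% of the fibroblasts in the IgG1 mice and 31.0%, 15% and 17.0% in the ipilimumab mice, a mean of 10.0% ± 3.79 against 21.0% ± 8.72 (SD, n = 3 each, exact permutation p = 0.10, the smallest possible). The part of this makeup in the 2 differences was not tested, since within adventitial cells alone neither gene had enough UMIs to be fitted.

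At the lower end were Timp3, Col14a1 and Loxl2. Timp3 stood at 3402, 2497 and 3783 CPM in IgG1 and 2203, 2433 and 1997 CPM in ipilimumab fibroblasts, at -0.54 (SE 0.186, adjusted p = 0.346 by edgeR). Col14a1 stood at 973, 719 and 677 CPM and 427, 514 and 641 CPM, at -0.56 (SE 0.215, adjusted p = 0.407). Loxl2 stood at 74.4, 37.2 and 64.2 CPM and 35.2, 41.1 and 31.9 CPM, at -0.70 (SE 0.304, adjusted p = 0.481). Within adventitial cells alone these were -0.37, -0.24 and -0.38. Dcn, the most abundant, stood at 13528, 11277 and 11983 CPM and 5008, 11556 and 10577 CPM, at -0.42 (SE 0.259, adjusted p = 0.639), and at -0.12 within adventitial cells. The low Dcn value was that of ipilimumab replicate 1, in which 31.0% of the fibroblasts were alveolar. Among the mice compared above, it also had the lowest Dcn level within adventitial cells. Its adventitial cells had a median of 1255 UMIs, against 5751.5 to 11477 in the other mice. The part of makeup or of depth in the low value was not tested.

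By role, no group had a called gene. The 5 fibrillar collagens lay between -0.13 and 0.01, the 4 basement membrane collagens between -0.26 and 0.15, and the 6 elastic fiber genes between -0.38 and 0.38. The 3 proteoglycans were all below 0, from -0.63 to -0.08, and so were Mmp2, Timp1 and Timp3, from -0.54 to -0.12. Summed over the list, fibroblasts carried 365, 335 and 342 UMIs per 10000 in IgG1 and 227, 307 and 332 in ipilimumab mice. The means were 347 ± 16.1 and 289 ± 54.8 (SD, n = 3 each). In adventitial cells alone they were 365 ± 14.1 and 333 ± 42.1, and in both cases ipilimumab replicate 1 was the lowest.

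**Figure D5:**
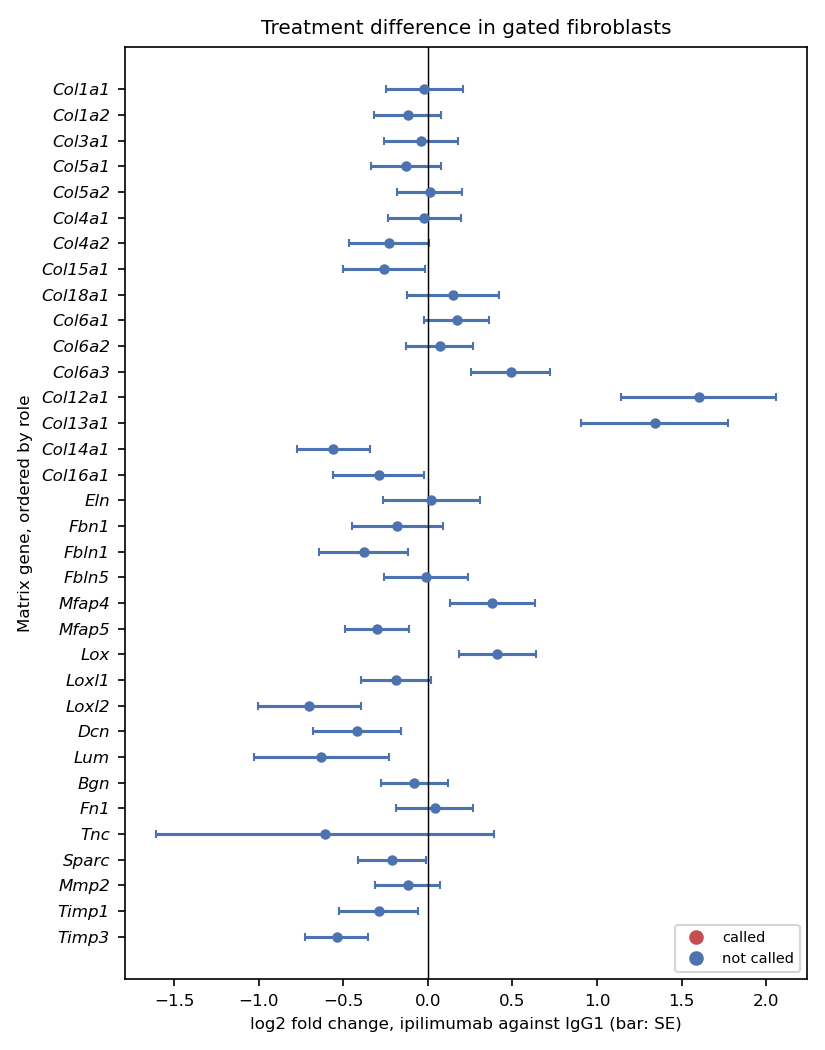
Log2 fold change of 34 matrix genes between ipilimumab and IgG1 mice in fibroblasts, with bars of 1 SE and genes ordered by role. Col12a1 at 1.60 and Col13a1 at 1.34 lie highest and Loxl2 at -0.70 lowest, and no gene was called.

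The 7 lists of other matrix genes had no called gene in fibroblasts. Of 6 other collagens tested, Col23a1 at 1.29 and Col27a1 at 1.14 had the smallest p. Of 20 folding and processing genes these were Plod2 at 1.12 (adjusted p = 0.268) and Pcolce2 at -0.42, and of 11 turnover genes Serpine2 at 0.75 and Timp2 at -0.38. Of 16 TGF-beta genes, Runx1, a transcription factor, was at 1.44 (adjusted p = 0.0707) and Thbs1, an activator of latent TGF-beta, at 1.25 (adjusted p = 0.198). None of the 9 laminin and other basement membrane genes tested was called. Of 12 other elastic fiber and proteoglycan genes, Efemp2 was at -0.63 and Mfap2 at -0.54, and of 3 collagen receptors Itga1 at -0.40 and Itgb1 at 0.16. Plod2, Thbs1, Col23a1 and Col27a1 were also lower in adventitial than in alveolar fibroblasts, as given above.

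In endothelium 9 genes of the list could be tested and none was called, nor was any of the 7914 genes tested (0%, edgeR), while DESeq2 called 43. At an unadjusted p under 0.05 there were 2, both lower, where 10.3% of all genes passed. The medians were -0.10 and -0.02. Col12a1 stood at 39.5, 80.6 and 72.4 CPM in IgG1 and 33.2, 28.4 and 32.6 CPM in ipilimumab mice, at -0.91 (SE 0.278, adjusted p = 0.222). Fbln5 stood at 31.4, 32.9 and 12.6 CPM and 9.61, 6.69 and 19.0 CPM, at -0.98 (SE 0.449, adjusted p = 0.481). The groups were separate for Col12a1 and overlapped for Fbln5, but the share of all endothelial genes with separate groups was not counted. Col4a1 at -0.02 (SE 0.183) and Timp3 at -0.10 (SE 0.195, adjusted p = 0.906) were close. Col1a1, Col1a2 and Col3a1 had 4, 8 and 2 UMIs there and were not tested. Summed over the list, endothelium carried 29.2 ± 2.94 UMIs per 10000 in IgG1 and 26.4 ± 1.61 in ipilimumab mice.

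The treatment differences of fibroblasts and endothelium were set against each other in 1 model. No gene of 7650 was called (0%, edgeR), and without the low-count filter 54 were. Of the 33 genes of the list, 6 had an unadjusted p under 0.05, where 7.33% of all genes did. The difference between the log2 fold changes was 2.52 for Col12a1 (SE 0.489, adjusted p = 0.272), the gene with higher values in ipilimumab fibroblasts and lower values in ipilimumab endothelium. The other 5 were Timp1 at -4.15, Mfap4 at 3.25, Lox at 2.81, Fn1 at 2.60 and Loxl2 at -1.76. Endothelium had 7, 2 and 6 UMIs of Timp1, Mfap4 and Lox and 31 of Loxl2. The Fn1 value rested on IgG1 replicate 2, where 1 endothelial cell had 97 of the 129 UMIs, and was -0.10 without that mouse. For Col1a1, Col1a2 and Col3a1 it was -3.05, -2.0 and 0.42, on the few endothelial UMIs given above, and for Dcn and Timp3, the most abundant in each class, -1.59 (SE 0.858) and -0.45 (SE 0.291).

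In alveolar macrophages 7 genes of the list could be tested and none was called, as in all 11811 genes (0%, edgeR), where DESeq2 called 1. At an unadjusted p under 0.05 there were 2, where 4.12% of all genes passed. Fn1 was 1140 ± 132 CPM in IgG1 and 929 ± 122 CPM in ipilimumab mice (SD, n = 3 each), at -0.30 (SE 0.127, adjusted p = 0.869), and the groups overlapped. Col4a1 was at 1.29 (SE 0.478, adjusted p = 0.869), at a level of 2.46 CPM, and at 0.68 without ipilimumab replicate 3. Without Fn1 the sum of the list in these cells was 0.216 ± 0.0124 and 0.276 ± 0.0588 UMIs per 10000. In interstitial macrophages 2 genes could be tested, Fn1 at -0.89 (SE 0.698, adjusted p = 0.999) and Col14a1 at -0.46 (SE 0.795, adjusted p = 0.999). None of 3767 genes was called there (0%) by edgeR or by DESeq2, and 3.58% had an unadjusted p under 0.05. The Fn1 value was -0.38 without ipilimumab replicate 1 and -1.87 without ipilimumab replicate 2.

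In the sum over all cells of a mouse, 35 of the 36 genes lay above 0 in ipilimumab mice and Fn1 lay below at -0.20 (SE 0.273, adjusted p = 0.915), with a median log2 fold change of 0.57 against -0.01 over all genes. None was called, as in all 17437 genes (0%, edgeR), where DESeq2 called 46. Only Col13a1 had an unadjusted p under 0.05, at 1.99 (SE 0.684, adjusted p = 0.871), where 5.14% of all genes did, and it was at 1.02 without ipilimumab replicate 1. Col1a1 was at 0.71, Col1a2 at 0.58 and Col3a1 at 0.67 (adjusted p = 0.871 each). Fibroblasts were 1.12% ± 0.542 of the cells in IgG1 and 2.02% ± 0.956 in ipilimumab mice, a difference of 0.902 percentage points (SD, n = 3 each, exact permutation p = 0.200). Endothelium was 2.78% ± 1.06 and 4.86% ± 1.40 (exact permutation p = 0.200). These are sums over the called cells of a digested right lung, relative to all their UMIs, and not a measure of whole-lung RNA. In such sums, more cells of a type, better recovery of them and more RNA per cell cannot be told apart. The direction here was not seen within fibroblasts, where the median was -0.12. The paper reports lower Acta2 and Col1a1 expression in lungs of ipilimumab mice, a measure unlike these sums. The sum of the list over all cells was 9.35 ± 1.48 UMIs per 10000 in IgG1 and 11.0 ± 1.34 in ipilimumab mice. This sum includes Fn1, its most abundant gene at 404 CPM over all mice and the only gene below 0.

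In endothelium, in both kinds of macrophage and over all cells the 7 lists likewise had no called gene. In endothelium the lowest p among them were those of Ccn1 at 1.13 (adjusted p = 0.152) and Itgb6 at 1.58 (adjusted p = 0.162), both of the TGF-beta list, and of Col9a3 at 1.37. In alveolar macrophages Inhba, a chain of activin, was at 4.72 (SE 1.65, adjusted p = 0.869) and the elastase Mmp12 at 2.53 (SE 1.09, adjusted p = 0.869). In interstitial macrophages Mmp14 was at 1.32 (adjusted p = 0.999).

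Promoter sequence was looked at for the genes whose levels set the classes apart. In the 250 bases before the RefSeq transcript starts (GRCm38.p6), TATAAA on either strand was present in 4 of the 22 genes of the list with an entry and in 12.4% of all 32851 entries, and CCAAT in 7 of 22 against 33.8%. The 4 were Col3a1 among the fibrillar collagens, Col13a1 and Tnc of the alveolar fibroblasts and Postn of the mural cells, with the match 117, 237, 126 and 26 bases before the start. A match is a description of these letters and not evidence of use. The sequences below run 5′ to 3′ along the strand of the gene, with TATAAA in capitals, at chr1:45311381-45311466 (+), chr10:61979300-61979358 (-), chr4:64047096-64047181 (-) and chr3:54361041-54361106 (+).
Col3a1: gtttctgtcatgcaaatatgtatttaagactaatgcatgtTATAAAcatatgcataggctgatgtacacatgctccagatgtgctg
Col13a1: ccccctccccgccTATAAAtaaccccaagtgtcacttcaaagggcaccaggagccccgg
Tnc: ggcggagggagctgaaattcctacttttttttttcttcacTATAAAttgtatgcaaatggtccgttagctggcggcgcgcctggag
Postn: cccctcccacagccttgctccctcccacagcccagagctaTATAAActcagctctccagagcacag

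Col4a1 and Col4a2, the genes with most of their UMIs in endothelium, lie head to head. Their annotated starts at 11312826 (- strand) and 11312805 (+ strand) of chromosome 8 are 21 bases apart, so the first exons overlap by the 22 bases at chr8:11312805-11312826, shown on the + strand because they are common to both genes.
Col4a1 and Col4a2: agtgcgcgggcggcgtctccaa
Among these 3 classes, both genes were highest in mural cells, followed by endothelium and fibroblasts. Their treatment differences were -0.02 and -0.06 in endothelium and -0.02 and -0.23 in fibroblasts, none called.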

How the data were processed

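Right lungs of 6 mice were profiled in 10x Genomics 3′ libraries. The deposited files hold whole-number UMI counts per gene and barcode for all barcodes, which the authors made with Cell Ranger against mm10; the processing notes name Cell Ranger 7.0.0. These are counts from before the ambient RNA correction and cell filtering that the authors did later.

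Cells were called from the raw counts. Barcodes above 1/10 of the 99th percentile of the top 5000 were kept, as were barcodes with at least 500 UMIs whose profile differed from that of barcodes ranked 45000 to 90000 (10000 simulations, false discovery rate 0.01). Cells needed 200 genes and at most 10% mitochondrial UMIs, and the cells with the highest simulated-doublet scores were removed, at 0.8% per 1000 cells. A cell entered a lineage with at least 3 of 8 panel genes and no other lineage's panel at more than 50% as many. UMIs were summed per mouse and class, with at least 5 cells. Sums were tested with edgeR 4.0.16 (filterByExpr, TMM, quasi-likelihood, Benjamini-Hochberg adjustment over all genes) in R 4.3.3, with mouse as a block between classes. The SE of a log2 difference is its size divided by the square root of the quasi-likelihood F, and understates the error where a class had few UMIs. Levels in CPM used the class's UMIs without TMM. Clusters, for an alternative, came from leidenalg 0.10.2 with the 36 genes left out.

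The 36 genes, the 7 other lists and the panels were chosen with earlier results of these data known. Folds are given for genes called, genes with an unadjusted p under 0.05, Col1a1, Col1a2, Col3a1 and the most abundant gene of a class, with a lower bound where a class had no UMI; for other lists, for called genes or those with the smallest p. The values of the laminin list by treatment in fibroblasts are not reported here. Further genes named by role, source or level were chosen after their values were seen. The alternatives were DESeq2 1.42.0, other size factors (RLE, total UMIs), no low-count filter, ambient RNA subtracted, gates of 2 or 4 panel genes, clusters, doublets kept, the UMI threshold alone, a replicate or mouse block, each mouse left out and, added after seeing the data, adventitial fibroblasts alone. Each library's total was 37666042 to 48612412 UMIs. The scripts were tested on simulated data.

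Replicate numbers were checked for pairing. Deviations of same-numbered mice correlated at -0.001, -0.056 and 0.009 in fibroblasts, so the numbers were not taken to pair the mice.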

Additional observations from a re-analysis of the deposited data

Results flagged for a closer look

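Cells that entered no gate (2093 of 24271) were outside every class comparison and still held matrix transcripts. They held 14.4% of all Col1a1 UMIs, 947 of 6589, with 1.65% to 28.5% by mouse and 5.42% ± 3.95 in IgG1 against 21.5% ± 10.1 in ipilimumab mice (SD, n = 3 each). They also held 28.7% of the Fn1 UMIs, 26935 of 93862, with 24.4% to 31.7% by mouse. With classes from clusters, fibroblasts held 98.4% of the Col1a1 UMIs and macrophages 88.6% of the Fn1 UMIs. These fibroblasts included a cluster in which 70.1% of the gated cells were fibroblasts. Among the cells with markers of 2 lineages, 72 lay in the cluster that holds most gated fibroblasts. Whether these are mixed barcodes was not tested.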

How the results depend on the processing

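Of 1604 values for 108 fold changes of the matrix genes under the alternatives, 1522 kept their direction and their side of the threshold, 53 lost a call, 11 gained one and 18 changed sign. The values that kept include repeats of the main fit, where the mouse left out was not in the comparison. This holds for every mouse left out of the mural comparison, and for IgG1 replicates 1 and 3 in the adventitial one. In fibroblasts, where 1 gene was called by treatment, clusters, the replicate block and adventitial cells alone called 0, DESeq2 29 and no low-count filter 198, and leaving out a mouse 0 to 3. In endothelium (0) DESeq2 called 43, no filter 237, the replicate block 1 and leaving out a mouse 0 to 6. In alveolar macrophages (0) DESeq2 called 1 and no filter 10, in interstitial macrophages (0) no filter 45 and leaving out a mouse 0 to 2, and over all cells (0) DESeq2 46. The difference between fibroblasts and endothelium (0) gave 54 without the filter and 0 to 5 with a mouse left out. Without the filter, edgeR called Col12a1 (adjusted p = 0.0120), Col13a1 (adjusted p = 0.00267) and Col8a1 in fibroblasts, Fn1 in endothelium, and Col12a1 (adjusted p = 0.000266) and Fn1 (adjusted p = 3.52e-05) in the difference between them. Adventitial against alveolar calls (808) were 508 to 966 over all alternatives. With any of the 4 mice of that comparison left out they fell to between 508 and 646 (508 without ipilimumab replicate 1, 530 without ipilimumab replicate 3). Mural calls (862) were 186 with DESeq2 and 1324 without the mouse block. The cause of these changes was not tested.

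By treatment in fibroblasts, Col12a1 went from 1.60 to -0.25 with clusters. Col1a1 was at 0.01 with clusters and 0.07 in adventitial cells alone, with -0.33 to 0.18 over mice left out (0.04 without IgG1 replicate 3 and without ipilimumab replicate 2). Col1a2 was at 0.04 in adventitial cells alone and -0.30 to 0.08 over mice left out. Col3a1 was at 0.06 in adventitial cells alone and without IgG1 replicate 2, 0.03 without ipilimumab replicate 2 and -0.33 to 0.14 in all. Timp3 in endothelium was at 0.01 with clusters and -0.23 to 0.13 over mice left out, and Fn1 over all cells -0.52 to 0.02. Between fibroblasts and endothelium, Col3a1 was -1.60 to 2.06 (-0.39 without ipilimumab replicate 3) and Fn1 -0.10 to 3.64. The difference in fibroblast share was 0.531 to 1.61 percentage points in each alternative. Mural cells, 17 in all, and low counts in endothelium and macrophages limited which genes could be tested.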
